A study of Mus musculus with 6 samples.

Results

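The 7 genes described here were taken from the count table by their symbols. They were the 5 SIBLING genes *Spp1*, *Ibsp*, *Dmp1*, *Mepe* and *Dspp*, together with the osteocyte phosphate genes *Phex* and *Fgf23*. All 7 were among the 39179 genes of the table, and 4 of them (*Spp1*, *Ibsp*, *Dmp1* and *Phex*) passed the filter on low counts. RNA of primary mouse osteosarcomas, malignant tumors whose cells lay down bone matrix, was sequenced from 3 mice of each genotype, CD44+/+ (numbers No244, No316, No368) and CD44-/- (numbers No203, No279, No364), and values per tumor keep these orders. Every mouse carried the Nf2Δ2/+ allele, so the CD44+/+ controls also had this mutation of the tumor suppressor *Nf2*, on a mixed C57BL/6 x 129/Sv x FVB background. No tumor had a treatment, age or sex in the labels, each library has its own mouse number, and the RNA was that of whole tissue. The comparison asks how the expression of these genes differs when the hyaluronan and osteopontin receptor CD44 is missing.

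SIBLING proteins (small integrin-binding ligand N-linked glycoproteins) are secreted, acidic phosphoproteins of bone and tooth matrix that bind calcium and, through an RGD motif, integrins. Osteopontin, the product of *Spp1*, is made by many cell types and is also a ligand of CD44, whereas bone sialoprotein (*Ibsp*) marks osteoblasts that form mineralizing matrix, and DMP1 and MEPE mark osteocytes, the cells enclosed in bone. PHEX is a membrane endopeptidase of osteoblasts and osteocytes, and FGF23 is the bone hormone that makes the kidney excrete phosphate. Loss of PHEX or DMP1 raises FGF23 and causes hypophosphatemic rickets.

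Total counts lay between 18076388 and 26954142 per tumor, and 3 counts, taken as the smallest detectable level, equalled 0.099 to 0.252 CPM, counts per 1000000 of the library size scaled by the TMM factors of edgeR. Mitochondrial genes took 55.2% of the counts of No244 and 5.94% to 12.5% of the others. No316 and No368 agreed within sampling noise for 87.2% of 16671 genes, compared with 15.7% to 24.1% for the other 14 pairs. For this pair *Spp1*, *Ibsp* and *Phex* lay within sampling noise and *Dmp1* outside it, and the other members had too few counts. Because most genes agreed, the pair was counted as 1 sample in means and SDs, also for *Dmp1* (n = 2 for CD44+/+, n = 3 for CD44-/-). The tests used all 6 libraries. Hepatocyte markers summed to 109383.4 CPM in No364 and to between 37.4 and 139.3 CPM in the other tumors, all 9 measured markers being highest in No364. Skeletal muscle markers summed to 18169.6 CPM in No244 and to between 14.1 and 641.8 CPM elsewhere. Xist, the RNA of the inactive X chromosome, lay between 858.9 and 1241.5 CPM in 4 tumors but at 0.726 CPM in No279 and 0.994 CPM in No364, and the Y-linked genes *Ddx3y*, *Eif2s3y*, *Uty* and *Kdm5d* had 112 or more counts each in No279 and No364 and at most 39 in any other tumor. *Cd44* itself was measured at 137.3, 243.6 and 240.3 CPM in the CD44+/+ tumors and at 19.2, 15.7 and 61.8 CPM in the CD44-/- tumors. The CD44-/- tumors were thus lower than every CD44+/+ tumor but not free of *Cd44* reads. Which part of the gene was deleted is not given in the sources used here, so the remaining reads do not check the deletion itself.

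The 5 SIBLING genes form a cluster on mouse chromosome 5. In GENCODE M21 on GRCm38, all on the plus strand, *Dspp* spanned chr5:104170712-104180127, *Dmp1* chr5:104202613-104214102, *Ibsp* chr5:104299171-104311469, *Mepe* chr5:104325329-104338611 and *Spp1* chr5:104435118-104441050, 270.3 kb in all. *Phex* lay on the minus strand of chrX:157162075-157415312 and *Fgf23* on the plus strand of chr6:127072902-127081408. The bases just before the start of the 4 SIBLING genes that had more than 3 counts in some tumor are shown, since these are neighbours whose levels differed widely within the same tumors. The RefSeq windows (GRCm38.p6, plus strand) are printed 5′ to 3′ up to the earlier of the RefSeq and GENCODE starts, and capitals mark TGTGGT or its reverse complement ACCACA, the core motif of Runx factors.
Spp1, chr5:104434861-104435110: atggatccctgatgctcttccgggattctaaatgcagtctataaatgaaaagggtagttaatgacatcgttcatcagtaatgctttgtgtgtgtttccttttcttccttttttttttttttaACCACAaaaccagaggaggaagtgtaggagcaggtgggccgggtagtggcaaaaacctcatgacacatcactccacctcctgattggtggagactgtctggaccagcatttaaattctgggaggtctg
Ibsp, chr5:104299037-104299170: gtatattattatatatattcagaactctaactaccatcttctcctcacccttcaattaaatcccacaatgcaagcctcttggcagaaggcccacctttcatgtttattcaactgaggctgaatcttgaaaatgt
Dmp1, chr5:104202367-104202612: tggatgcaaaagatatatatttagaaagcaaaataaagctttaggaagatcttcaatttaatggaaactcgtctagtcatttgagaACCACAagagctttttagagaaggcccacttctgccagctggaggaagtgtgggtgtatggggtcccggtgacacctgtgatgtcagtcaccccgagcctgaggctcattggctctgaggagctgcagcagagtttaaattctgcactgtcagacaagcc
Mepe, chr5:104325079-104325328: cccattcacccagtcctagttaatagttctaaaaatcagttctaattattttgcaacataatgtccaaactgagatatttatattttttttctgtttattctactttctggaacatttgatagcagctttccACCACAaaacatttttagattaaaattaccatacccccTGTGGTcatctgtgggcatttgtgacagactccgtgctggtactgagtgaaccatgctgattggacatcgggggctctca

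*Spp1* held 1 match that began 128 bases before the RefSeq start, *Dmp1* held 1 at 164 bases, *Mepe* held 2 at 80 and 118 bases, and *Ibsp* held none. Over the full windows of 300 bases (250 before and 50 after the start), 16.8% of 32851 promoter windows held this motif and 1.81% held at least 2. The AP-1 motif (TGAGTCA or TGACTCA), present in 5.2% of all windows, and CCTGCG, present in 17.3% on either strand, were found in none of the windows nearest the GENCODE starts of the 6 members listed (*Spp1*, *Ibsp*, *Dmp1*, *Mepe*, *Phex* and *Fgf23*). A match says only that these letters are there.

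*Spp1* was the most abundant SIBLING transcript in 5 of the 6 tumors and was well detected in all of them. Its level was 3525.3, 6415.9 and 6348.6 CPM in the CD44+/+ tumors, with No244 the lowest, and 3145.6, 1444.1 and 2233.1 CPM in the CD44-/- tumors, with No203 the highest. All 3 CD44-/- tumors lay below all 3 CD44+/+ tumors, but the closest pair, No203 and No244, differed little. The genotype means were 4953.8 ± 2020.2 CPM (SD, n = 2) in CD44+/+ and 2274.2 ± 851.5 CPM (SD, n = 3) in CD44-/-. In edgeR the log2 fold change was -1.26 (SE 0.83, adjusted p = 0.573), so the difference did not pass the test. For comparison, 9.57% of the 16839 tested genes likewise had all CD44-/- libraries below all CD44+/+ ones. Scaled by library size alone, a rule met by 4.55% of genes, *Spp1* overlapped between genotypes, the lowest CD44+/+ tumor having 1991.9 CPM and the highest CD44-/- tumor 3505.0 CPM. That lowest tumor was No244, where mitochondrial genes took 55.2% of the counts. With mitochondrial genes removed and TMM scaling, the genotypes did not overlap for *Spp1*.

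*Ibsp* showed the widest spread of the tested members, and it lay within the CD44-/- group. In the CD44+/+ tumors it reached 640.1, 1688.2 and 1688.5 CPM. Among the CD44-/- tumors, No203 had 4820.2 CPM, whereas No279 had 3.27 and No364 had 2.25 CPM. The highest and the lowest tumor of the 6 therefore had the same genotype, with *Ibsp* 1474.8-fold higher in No203 than in No279 and 2142.0-fold higher than in No364. These levels rested on 121563, 99 and 43 reads. The genotype means were 1164.2 ± 741.2 CPM (SD, n = 2) and 1608.6 ± 2781.4 CPM (SD, n = 3), closer to each other than the SD within each genotype (edgeR log2 fold change 0.26, SE 2.29, adjusted p = 0.971). The range of *Ibsp* over the 6 tumors, 11.01 on the log2 scale, was larger than that of 99.6% of the genes tested, whose median was 2.07.

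*Dmp1* followed the same division of the CD44-/- tumors. It was measured at 229.1, 167.7 and 177.1 CPM in the CD44+/+ tumors, at 146.6 CPM in No203, and at 0.363 and 0.523 CPM in No279 and No364, where it had 11 and 10 counts. No203 was thus close to the CD44+/+ tumors, and the level in No203 was 403.8-fold that of No279 and 280.2-fold that of No364. The means were 200.7 ± 40.1 CPM (SD, n = 2) in CD44+/+ and 49.2 ± 84.4 CPM (SD, n = 3) in CD44-/-, and the edgeR log2 fold change of -1.96 (SE 1.93) had an adjusted p of 0.707. The genotypes did not overlap under TMM scaling (9.57% of all genes were lower in this way), also with mitochondrial genes removed. They did overlap with library size alone, where the lowest CD44+/+ tumor, No244, had 129.4 CPM and the highest CD44-/- tumor 163.4 CPM. With No203 left out, the log2 fold change was -8.77 for *Dmp1* (SE 0.59, edgeR adjusted p = 0.0884) and -8.96 for *Ibsp* (SE 1.09, edgeR adjusted p = 0.119), and neither passed. Among all genes, 17.6% had an unadjusted p under 0.05 in that edgeR fit (7.77% as lower) and 0% were called, compared with 10.7% in the fit of all 6 libraries.

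*Mepe*, whose acidic peptide inhibits mineralization, was high in 1 tumor, above the 3-count level in 2 more and at or below it in the rest. No203 had 1439 counts, or 57.1 CPM, whereas No244 had 1.34, No316 0.209, No368 0.084 and No364 0.0523 CPM, and No279 had 0 counts. Counts were 16 in No244, 6 in No316, 2 in No368 and 1 in No364, so the last pair lay under the detectable level. The level in No203 was 42.4-fold that of No244, the next highest, and at least 576.1-fold higher than the 3-count level of No279. *Mepe* did not pass the low-count filter, and without that filter its log2 fold change was 5.26 (SE 2.73, edgeR adjusted p = 0.524). *Dspp*, the dentin gene of odontoblasts, had 1 count in No244 and 0 in the other tumors. At this depth it was not detectable in any tumor, and a count of 0 allows up to 0.099 to 0.157 CPM in the CD44-/- tumors. Among the odontoblast and enamel markers, *Enam*, *Ambn* and *Odam* had 0 counts in all 6 tumors, and 1 of the 6 genes, *Klk4*, passed the filter.

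**Figure D1:**
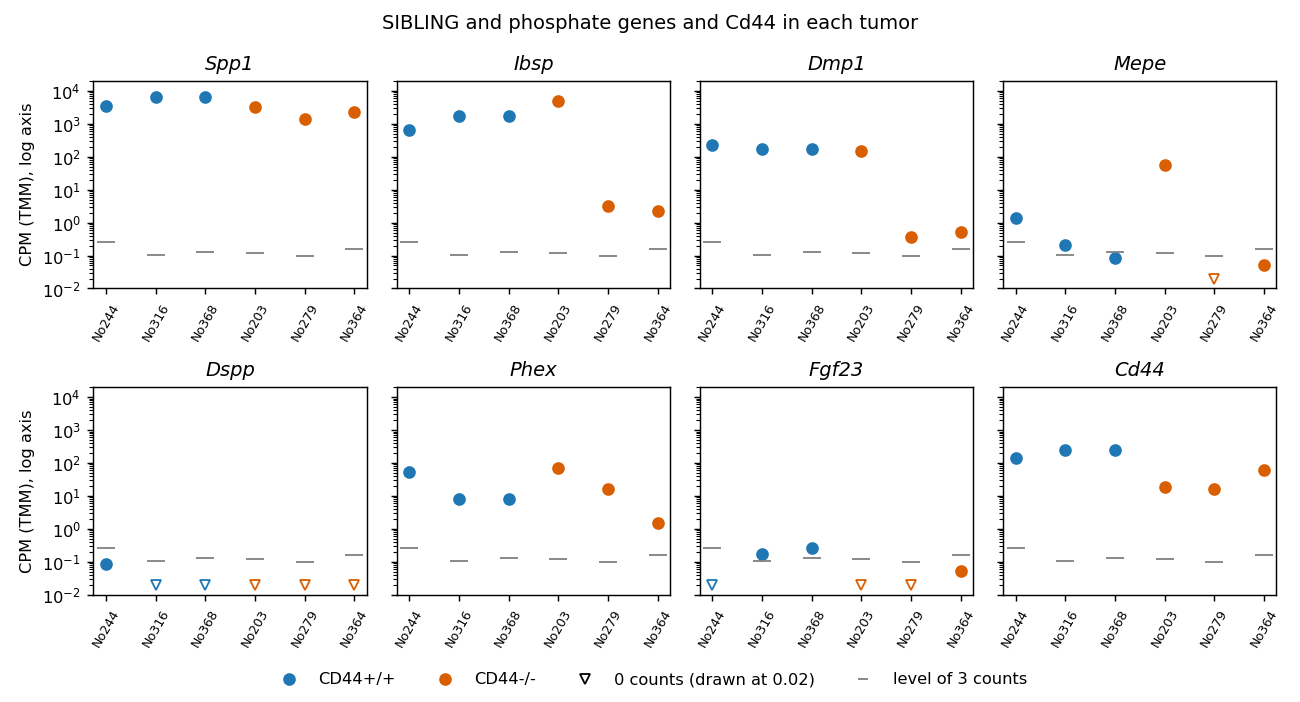
Levels of the 7 members and *Cd44* in each tumor, in TMM-scaled CPM on a log axis, with CD44+/+ tumors in blue and CD44-/- tumors in orange. Grey dashes mark the level of 3 counts and open triangles tumors with 0 counts. *Ibsp* and *Dmp1* are near the bottom in No279 and No364 and high in No203, while *Spp1* stays at or above 1444.1 CPM in every tumor.

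The make-up of the SIBLING transcripts therefore differed between tumors of one genotype. Of the summed counts of the 5 genes, *Spp1* gave 80.2%, 77.6% and 77.3% in the CD44+/+ tumors, but 38.5% in No203, 99.7% in No279 and 99.9% in No364. *Ibsp* gave 14.6%, 20.4% and 20.6% in the CD44+/+ tumors and 59% in No203, where it exceeded *Spp1*, but 0.226% in No279 and 0.101% in No364. *Dmp1* gave 5.21%, 2.03% and 2.16% in the CD44+/+ tumors, 1.79% in No203, and 0.0251% and 0.0234% in No279 and No364. The 95% Wilson interval of the *Spp1* share ran from 79.9% to 80.5% in No244 and from 77.4% to 77.7% in No316, and covers counting error only. Together the 5 genes took 0.248%, 1.09% and 1.08% of all counts in the CD44+/+ tumors and 0.909%, 0.179% and 0.159% in No203, No279 and No364.

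**Figure D2:**
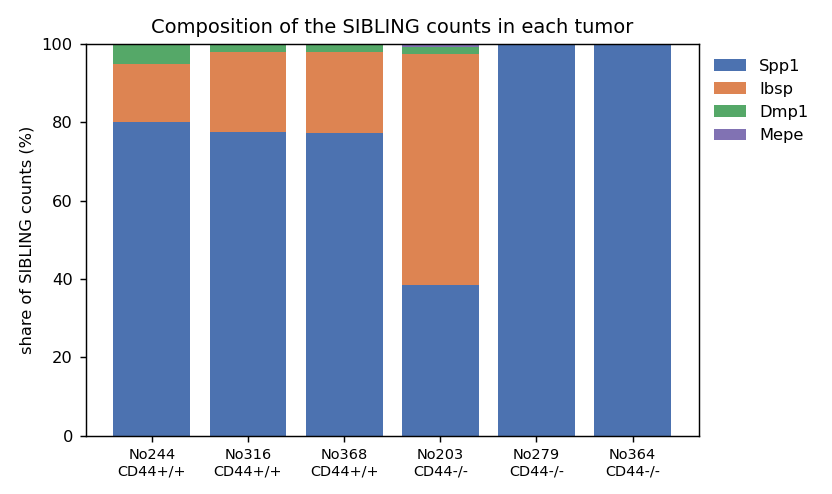
Share of the summed SIBLING counts (in percent) given by *Spp1*, *Ibsp*, *Dmp1* and *Mepe* in each of the 6 tumors; *Dspp* had 1 count in all. *Spp1* makes up 77.3% to 80.2% in the CD44+/+ tumors, 38.5% in No203, and nearly everything in No279 and No364.

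Levels can be compared between genes only per length, as TPM (counts per base of exon, scaled to 1000000 per tumor, with the mitochondrial genes left out). On this scale *Spp1* stood at 5302.5, 14090.7 and 14129.4 TPM in the CD44+/+ tumors and at 5190.4, 2877.2 and 2362.1 TPM in the CD44-/- tumors. *Ibsp* stood at 767.3, 2954.6 and 2994.7 TPM in the CD44+/+ tumors and at 6338.3, 5.19 and 1.9 TPM in No203, No279 and No364. The order *Spp1*, *Ibsp*, *Dmp1*, *Phex*, *Mepe* held in all 3 CD44+/+ tumors. In No203 *Ibsp* was first and *Mepe*, at 92.2 TPM, exceeded *Phex*, at 30.3 TPM, and in No279 *Phex*, at 8.32 TPM, was second. In No364 *Phex* (0.421 TPM) and *Dmp1* (0.33 TPM) rested on 29 and 10 counts.

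Since *Ibsp* and *Dmp1* mark osteoblasts and osteocytes, they were also set against *Col1a1*, the main collagen of bone matrix. *Col1a1* stood at 8482.2, 16305.4 and 16924.8 CPM in the CD44+/+ tumors and at 29440.8, 11990.4 and 764.9 CPM in No203, No279 and No364. Per 1000 *Col1a1* counts there were 75.5, 103.5 and 99.8 *Ibsp* counts in the CD44+/+ tumors, against 163.7 in No203 and 0.273 and 2.94 in the other CD44-/- tumors. The difference between No203 and the other CD44-/- tumors thus remained in this ratio, most widely for No279, whose *Col1a1* level lay within the range of the CD44+/+ tumors. *Dmp1* counts per 1000 *Col1a1* counts were 27, 10.3 and 10.5 in CD44+/+, 4.98 in No203, 0.0303 in No279 and 0.684 in No364. *Spp1* behaved differently, with 415.6, 393.5 and 375.1 counts in CD44+/+, 106.8 in No203, 120.4 in No279 and 2919.4 in No364. In No364 this ratio was large beside a low *Col1a1* level. *Spp1* itself was not high there, at 2233.1 CPM, below every CD44+/+ tumor. The same library held the hepatocyte transcripts. In whole tissue, fewer cells of a type and less RNA per cell cannot be told apart.

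*Phex* varied within both genotypes. Its levels were 53.8, 7.96 and 7.89 CPM in the CD44+/+ tumors and 70, 15.9 and 1.52 CPM in the CD44-/- tumors. Unlike *Ibsp* and *Dmp1*, it was higher in No279 than in No316 and No368, so the order of the tumors differed from that of the SIBLING genes. The means of 30.9 ± 32.4 CPM (SD, n = 2) and 29.2 ± 36.1 CPM (SD, n = 3) were nearly equal (edgeR log2 fold change 0.33, SE 1.31, adjusted p = 0.934). *Fgf23*, the hormone downstream of PHEX and DMP1, had 5 counts in No316, 6 in No368, 1 in No364 and 0 in the others, and did not pass the filter. The highest of these was 0.252 CPM, and without the filter the log2 fold change was -3.00 (SE 1.60, edgeR adjusted p = 0.529). Transcripts of *Fgf23* were thus at or under the detectable level in all but No316 and No368.

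None of the 4 tested members was called at an adjusted p under 0.05 in edgeR, and the same was true of all 16839 genes (0% called), while 1810 genes had an unadjusted p under 0.05. No member was among these 1810. The median log2 fold change of the 4 members was -0.50, beside 0.11 over all genes. DESeq2, the tool of the study, called 2.33% of its genes, and gave *Spp1* an adjusted p of 0.229 (unadjusted 0.0186, with 11.1% of genes under 0.05) and *Phex* one of 0.947. It gave none for *Ibsp* and *Dmp1*, which its Cook's distance filter set aside, and 0.967 and 0.599 without that filter, under which 6.15% of genes were called. limma-voom, which averages tumors on the log2 scale, gave *Ibsp* a log2 fold change of -5.07 (unadjusted p = 0.159) and *Dmp1* one of -5.93 (unadjusted p = 0.0141, adjusted p = 0.507). It called no gene by adjusted p, and 9.15% of genes had an unadjusted p under 0.05. Exact permutation of 3 against 3 libraries cannot give a two-sided p below 0.1.

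**Figure D3:**
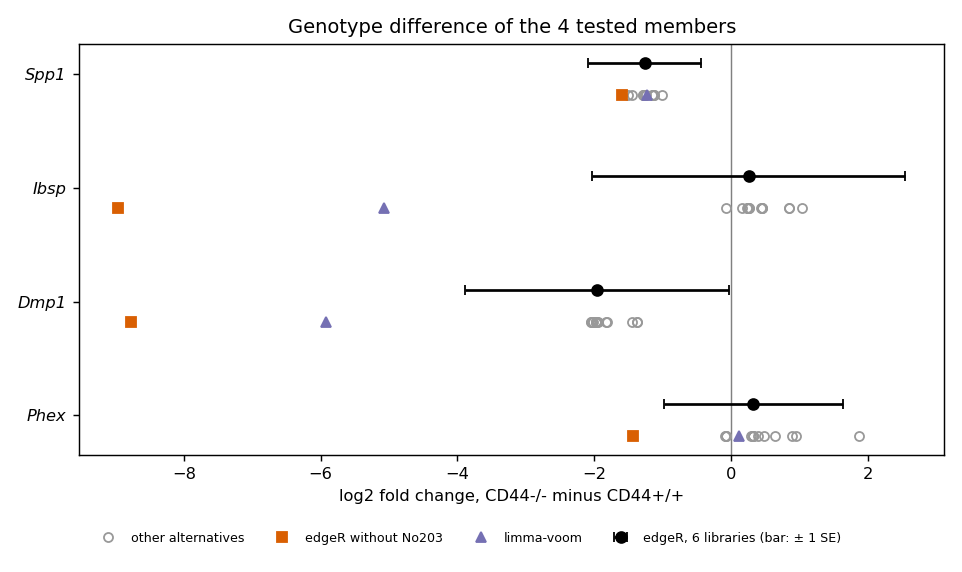
Log2 fold changes (CD44-/- minus CD44+/+) of the 4 tested members. Black points with bars give the edgeR estimate over 6 libraries ± 1 SE, and the symbols under them the same value under 17 alternative settings. *Ibsp* and *Dmp1* move to -8.96 and -8.77 without No203, and *Spp1* stays between -1.59 and -1.01.

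The receptors of the SIBLING proteins include CD44 and the integrins. Of 10 receptor genes, all tested, none was called by edgeR, 1 was higher (*Itga8*) and 1 lower (*Cd44*) at an unadjusted p under 0.05 (6.44% and 4.31% of all genes), and the median log2 fold change was 0.12. *Cd44* had a log2 fold change of -2.68 (SE 0.65, edgeR adjusted p = 0.452), and DESeq2 gave an adjusted p of 0.0145, which became 0.178 with No316 and No368 summed into 1 sample. *Itga9*, a subunit of an osteopontin-binding integrin, did not overlap between genotypes under TMM scaling (9.57% of all genes were lower in this way), at 48.1, 28.5 and 28.6 CPM in CD44+/+ and 27.1, 24.9 and 16.2 CPM in CD44-/- (edgeR adjusted p = 0.549). With library size alone it overlapped, the lowest CD44+/+ tumor having 27.2 CPM and the highest CD44-/- tumor 30.8 CPM. With mitochondrial genes removed and TMM scaling, *Itga9* did not overlap. The abundant subunits *Itgb1* and *Itgb5* had log2 fold changes of 0.36 and -0.12 and overlapped.

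Among the enzymes that modify or cleave SIBLING proteins and FGF23, the genotypes did not overlap for 5 genes, 4 lower and 1 higher in CD44-/- (9.57% and 9.49% of all genes, 19.1% in either direction). Of 13 such genes, 11 were tested, none was called by edgeR, 2 were higher and 4 lower at an unadjusted p under 0.05 (6.44% and 4.31% of all genes), and the median log2 fold change was -0.82. *Fam20c*, the Golgi kinase that phosphorylates SIBLING proteins, was at 133.9, 301.7 and 298.2 CPM in CD44+/+ and at 61.1, 31.8 and 56.9 CPM in CD44-/-. All 3 CD44-/- tumors, No203 included, were lower than every CD44+/+ tumor, also with library size alone, and the log2 fold change was -2.29 (SE 0.51, edgeR adjusted p = 0.452). *Galnt3*, which glycosylates FGF23 and shields it from cleavage, was at 62.6, 170.6 and 164.9 CPM in CD44+/+ and at 27.6, 3.93 and 1.73 CPM in CD44-/- (log2 fold change -3.58, SE 1.11, edgeR adjusted p = 0.452). *Bmp1*, a procollagen protease that also processes DMP1 and is named here after its values were seen, was at 1203.9, 784.8 and 769.7 CPM in CD44+/+ and at 363.6, 154.1 and 104.7 CPM in CD44-/- (log2 fold change -2.15, SE 0.66, edgeR adjusted p = 0.452). The metalloproteinase gene *Mmp3*, whose product cleaves osteopontin, was at 0.84, 1.25 and 1.09 CPM in CD44+/+ and at 1.86, 46.3 and 3.82 CPM in No203, No279 and No364 (log2 fold change 4.01, SE 1.29, edgeR adjusted p = 0.452), and at 1.41 without No279. DESeq2 called these 4 genes, the first 3 as lower (among 1.12% of all genes) and *Mmp3* as higher (among 1.21%), with adjusted p of 0.00706, 0.0367, 0.0415 and 0.0343. With No316 and No368 summed into 1 sample, DESeq2 gave adjusted p of 0.178, 0.233, 0.22 and 0.16, and none was called. Prothrombin (*F2*), a liver gene, was with *Mmp3* 1 of the 2 genes counted as higher at an unadjusted p under 0.05 in edgeR. It was at 1400.7 CPM in No364 and at most 0.952 CPM elsewhere, and its genotypes overlapped.

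Transcription factors listed for bone matrix genes, not all of them activators, had their lowest level in No364 in all 11 cases tested, compared with 24.6% of all genes. None was called, none had an unadjusted p under 0.05 in edgeR, all 11 log2 fold changes were below 0, and their median was -1.16. *Runx2*, the master factor of osteoblast commitment, and *Sp7*, which acts after it, are named for their role and were chosen after their values were seen. *Sp7* stood at 192.2, 192.0 and 199.0 CPM in the CD44+/+ tumors, at 333.2 CPM in No203, and at 3.96 and 0.314 CPM in No279 and No364. *Runx2* stood at 95, 121.8 and 128.3 CPM in CD44+/+, at 173.2 CPM in No203, 68.3 CPM in No279 and 5.76 CPM in No364. *Dlx5* was at 34.7, 43.8 and 45.9 CPM in CD44+/+, and at 34.5, 0.594 and 0.105 CPM in No203, No279 and No364. Of *Runx2*, *Sp7* and *Dlx5*, *Runx2* was thus the least reduced in No279. There *Sp7*, *Dlx5*, *Ibsp* and *Dmp1* were low, and in No364 all of these genes were low. The rest of the list was mixed in No279. *Twist1* was highest there, at 98.6 CPM, and *Atf4* was at 264.8 CPM, against 330.4, 326.7 and 333.8 CPM in CD44+/+. *Mef2c* and *Dlx3* were low there, at 12.4 and 2.15 CPM.

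Of 12 osteoblast lineage markers, *Sp7* and *Runx2* among them, each was lowest in No279 or No364, compared with 42.4% of all genes, and 8 were highest in No203, compared with 14.2% of all genes. *Col1a1* in No279 lay within the CD44+/+ range, as given above, so the low levels in No279 did not cover the whole list. The median log2 fold change of the 12 was -0.99. *Alpl*, the phosphatase that frees phosphate for mineral, was at 481.1, 618.5 and 648.5 CPM in CD44+/+, at 718.5 CPM in No203 and at 7.16 and 19.6 CPM in No279 and No364. The osteocalcin genes *Bglap*, *Bglap2* and *Bglap3* were the 3 osteoblast markers whose genotypes did not overlap (9.57% of all genes were lower in this way), with log2 fold changes of -4.71, -4.74 and -5.05 (edgeR adjusted p = 0.452 for each, DESeq2 adjusted p = 0.0307, 0.0259 and 0.00842). With No316 and No368 summed into 1 sample, DESeq2 gave *Bglap3* an adjusted p of 0.0397 and set the other copies aside with its Cook's distance filter. *Bglap* was at 3481.0, 2042.2 and 1833.3 CPM in CD44+/+ and at 269.2, 4.79 and 6.8 CPM in No203, No279 and No364, so No203 was low for osteocalcin while it was highest for *Ibsp*. The values of these near-identical copies are uncertain, since the handling of reads that match several of them is not given in the sources used here.

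Of 16 genes of phosphate and mineral handling, 10 were tested, none had an unadjusted p under 0.05 or separated the genotypes, and the median log2 fold change was -0.65. *Pth1r*, the parathyroid hormone receptor, was at 645.1, 199.7 and 197.4 CPM in CD44+/+ and at 386.7, 11.9 and 5.44 CPM in No203, No279 and No364. *Phospho1*, which makes phosphate inside matrix vesicles, was at 92.8, 199.5 and 195.7 CPM in CD44+/+ and at 184.7, 16.1 and 15.9 CPM in No203, No279 and No364. *Fgfr1*, a receptor of FGF23, overlapped between genotypes (log2 fold change -0.69), and *Kl*, the co-receptor, named after its values were seen, had 96 counts in No364 and 0 in the other 5 tumors. Of the 10 tested genes, 7 were lowest in No279 or No364, compared with 42.4% of all genes. The other 3 were highest in No279, *Fgfr1* at 419.8, *Ank* at 265.2 and *Xpr1* at 144.5 CPM, as were 3626 of all 16839 genes. Among 10 other osteocyte markers, 3 were lowest in No279 and 6 in No364, 9 in all, compared with 42.4% of all genes. Another 2 were highest in No279, *Ackr3* at 78.9 CPM and *Fbln7* at 28 CPM, so the low levels in No279 did not cover the whole list. *Sost*, the osteocyte inhibitor of Wnt signaling, had 206 counts in No203 (8.17 CPM), 2, 38 and 25 in the CD44+/+ tumors, and 0 in No279 and No364, so No203 was the highest tumor for *Mepe* and *Sost* alike. *Tnfrsf11b*, which encodes osteoprotegerin, was the 1 osteocyte marker with an unadjusted p under 0.05, at 1.68, 60.9 and 62.2 CPM in CD44+/+ and 4.48, 0.396 and 1.41 CPM in CD44-/- (log2 fold change -4.31, edgeR adjusted p = 0.452, DESeq2 adjusted p = 0.035, or 0.236 with No316 and No368 summed). Its level in No244 was below that in No203, so the genotypes overlapped.

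**Figure D4:**
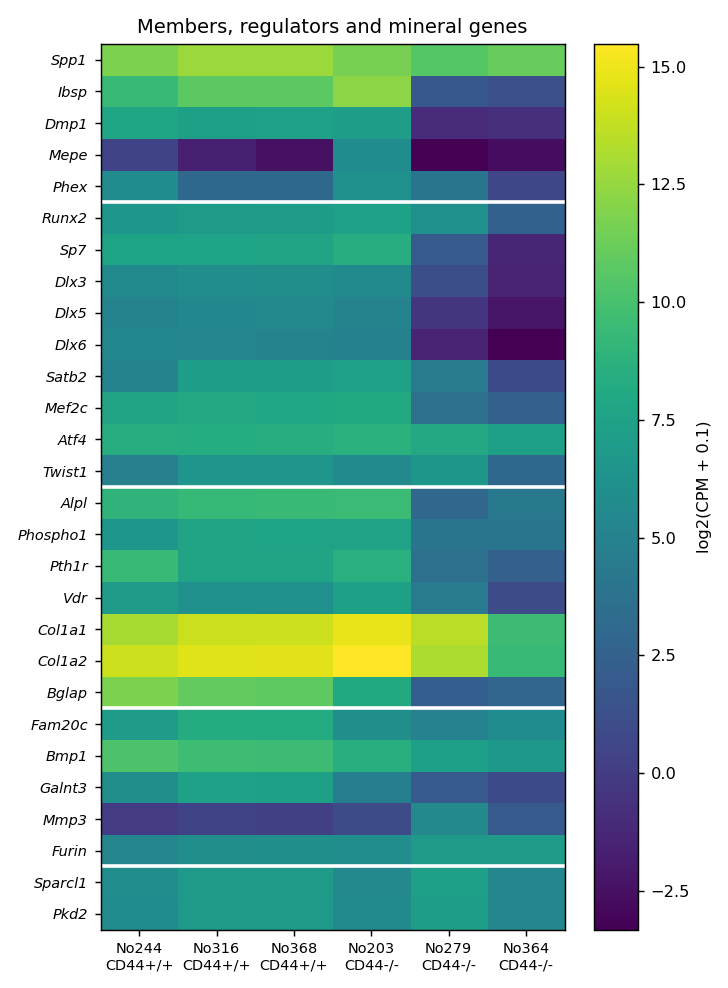
Levels, as log2(CPM + 0.1), of 5 members, transcription factors, mineral and matrix genes, SIBLING enzymes and 2 genes flanking the SIBLING cluster, one column per tumor; the genes include some chosen after their values were seen. The blocks from top to bottom, set apart by white lines, follow that order. No279 and No364 are dark for *Ibsp*, *Dmp1*, *Sp7* and *Dlx5*, and the flanking genes *Sparcl1* and *Pkd2* stay between 40.8 and 157.2 CPM.

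The low level of *Ibsp* and *Dmp1* in No279 was not shared by the genes next to the cluster, *Sparcl1* and *Pkd2* (*Pkd2* was chosen after its values were seen). *Sparcl1*, whose end lay 57 kb before *Dspp*, was at 59.6, 117.4 and 118.9 CPM in CD44+/+ and at 45.9, 157.2 and 40.8 CPM in No203, No279 and No364. *Pkd2*, 18.4 kb after *Spp1*, was at 53.4, 109.0 and 107.6 CPM in CD44+/+ and at 48.6, 140.5 and 41.5 CPM in CD44-/-. No279 had the highest level of both, whereas No364, also low for *Ibsp* and *Dmp1*, had the lowest level of both. *Ppm1k*, of the same list, was lowest in No279, at 4.52 CPM, and lay between 7.35 and 64 CPM in the other tumors. The 6 tested neighbours had a median log2 fold change of 0.41, with none at an unadjusted p under 0.05.

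Marker levels of other cell types differed between the tumors as well. Macrophage markers, of which 9 were tested, summed to 580.8, 1199.6 and 1200.9 CPM in CD44+/+ and to 814.0, 1413.3 and 485.2 CPM in No203, No279 and No364, and none had an unadjusted p under 0.05. Osteoclast markers summed to 13196.4, 801.8 and 798.2 CPM in CD44+/+ and to 11732.3, 9726.4 and 871.8 CPM in No203, No279 and No364. The macrophage markers differed among themselves, 2 being highest in No316, 3 in No368 and 4 in No279. Of all 16839 genes tested, 1447, 1315 and 3626 were highest in these tumors. Macrophages and osteoclasts also express *Spp1*, and their part in its level was not tested. Of 8 chondrocyte markers, 6 were tested and *Acan*, the cartilage proteoglycan, did not overlap between genotypes (9.49% of all genes were higher in this way), at 0.168, 1.36 and 0.882 CPM against 10.1, 152.9 and 10.3 CPM (log2 fold change 6.11, edgeR adjusted p = 0.452). *Col2a1*, the main cartilage collagen, was at 38.3, 0.104 and 0.294 CPM in CD44+/+ and at 21, 0.627 and 0 CPM in CD44-/- (log2 fold change -0.83). Epithelial markers summed to 1974.6 CPM in No364, 38.6 CPM in No279 and 2.71 to 6.15 CPM in the other tumors, with *Krt18* at 958.6 CPM in No364 and 28.5 CPM in No279. The 2 tumors low in *Ibsp* and *Dmp1* were also the 2 with low Xist and with Y-linked transcripts, and of these 2 only No364 had high hepatocyte markers. The part of these differences in the levels of the members was not tested.

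Pearson's r of log2 CPM was ranked among 10678 genes over the 6 libraries. No316 and No368, counted as 1 sample in means, entered it separately. The genes most like each tested member are given as a description. For *Spp1* they were *Phc3* (r = 0.995), *Ppp4r1l-ps* (r = 0.995) and *Zfp598* (r = 0.991). For *Ibsp* they were *Cul1* (r = 0.996), *Pkdcc* (r = 0.995) and *Slc8a3* (r = 0.995), the last at 19.1, 25 and 26 CPM in CD44+/+ and at 40.8, 0.132 and 0.0523 CPM in No203, No279 and No364. Pearson's r does not measure the size of a change, and *Cul1* lay only between 107.8 and 157.5 CPM. For *Dmp1* they were Xist, the closest, *Gga3* (r = 0.999) and *Arhgap27os3* (r = 0.998), and Xist was low in the same 2 tumors. For *Phex* they were *Fbxo30* (r = 0.999, 18.3 to 27.5 CPM), *2810025M15Rik* (r = 0.998, 8.53 to 59.3 CPM) and *Bcar1* (r = 0.997, 31.8 to 45.4 CPM). All members and neighbours in a library share its depth and its mixture of cells.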

How the data were processed

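The authors extracted RNA from primary osteosarcoma tissue (the labels' extraction text speaks of cell lines), made stranded mRNA libraries, sequenced them from one end, aligned the reads to GRCm38 (Ensembl 84) with HISAT2 2.0.2 and counted them per gene with featureCounts of Subread 2.0.0, after bcl2fastq 1.8.4. The deposited table holds raw counts, 1 column per tumor, none left unused. Strand and multi-mapping settings are not given in the sources used here, so overlapping or near-identical genes are uncertain. For 37607 of 39179 identifiers symbols were found, and coordinates are those of GENCODE M21. Genotypes were taken from the labels. Nothing in them says how the tumors were batched.

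All 6 libraries entered one edgeR fit (version 4.0.16, R 4.3.3) with genotype as its term, TMM scaling and the default filterByExpr. The quasi-likelihood test was called at a p under 0.05 after Benjamini-Hochberg adjustment over all genes. The estimated biological coefficient of variation was 0.708. p-values measure the spread between these 6 libraries. No316 and No368 entered the fit separately, although they agreed within sampling noise for most genes. Alternatives were DESeq2 1.42.0, limma-voom (limma 3.58.1), other scalings and filters, and each tumor left out. DESeq2 without Cook's filter, DESeq2 with No316 and No368 summed, non-overlap counts with fewer libraries, the alternatives for the 9 other genes whose calls are given, and the ratios to *Col1a1* and *Spp1* were added after seeing the data. Shares have Wilson 95% intervals. TPM used GENCODE exon lengths. The members and gene lists were chosen with earlier results of these data known. Named genes are the members, *Cd44* and the 3 genes nearest in pattern to each tested member with a mean of at least 10 CPM. Each list allowed up to 4 tested genes of largest absolute log2 fold change and up to 2 of highest mean CPM. Not every list gene that met this rule is named. *Bmp1*, *Runx2*, *Sp7*, *Pkd2*, *Kl*, the Y-linked genes and other genes outside this rule were chosen after their values were seen. The fits were also run on simulated data. A pass was required only of edgeR, at a spread between libraries far smaller than that estimated here, so it does not check power in these data.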

Additional observations from a re-analysis of the deposited data

How the results depend on the processing

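No member was called in edgeR or in any of 17 alternatives. Adjusted p ranged over them from 0.158 to 0.989 for *Spp1*, 0.119 to 0.998 for *Ibsp*, 0.0884 to 0.989 for *Dmp1* and 0.595 to 0.999 for *Phex*. The sign of *Spp1* and *Dmp1* held in all, with log2 fold changes of -1.59 to -1.01 and -8.77 to -1.37 when each tumor was left out in turn. *Ibsp* ranged from -8.96 (without No203) to 0.85 when each tumor was left out, with -0.07 without No244. It was -5.07 in limma-voom, which averages tumors on the log2 scale, and at most 1.04 over all alternatives. *Phex* ranged from -1.43 (without No203) to 1.88 when each was left out, was -0.07 without No316 or No368 and with the pair summed in edgeR, and -0.09 with the pair summed in DESeq2. The median of the 4 tested members, -0.50, was -3.15 in limma-voom and ranged from -5.18 (without No203) to -0.19 (without No279 or No364). The number of genes called, 0 in edgeR, was 419 in DESeq2, 1195 without its Cook's filter and 146 with No316 and No368 summed. Genes with an unadjusted p under 0.05, 1810 in edgeR, numbered 1197 with library size alone, 3646 in DESeq2 without Cook's filter, 763 without No316, 784 without No368, 3085 without No203, 761 with the pair summed and 639 when No364 was also left out. Genes whose genotypes did not overlap, 3209, numbered 4840 without No364 and 6384 without No203, where fewer libraries are compared. Unless stated, the cause of a change was not tested. Of 84 normalized levels under other scalings, 8 moved by more than 1 SD (*Spp1* in No316 and No368, and *Dmp1* in CD44+/+ tumors). No paired analysis was possible because the genotypes share no mouse numbers. Depth limits *Dspp*, *Fgf23* and, outside No203, *Mepe*.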
